A study of Homo sapiens with 36 samples.

Results

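Recombinant human interleukin-8 (IL-8) was compared with no treatment in HN4, an established human line of head and neck squamous cell carcinoma. The comparison takes 6 of the 36 libraries of the series: 3 of HN4 given IL-8 at 100 ng per ml for 24 h and 3 of HN4 left untreated, chosen by their labels. The series asks how cells with unlike CXCR1 levels answer to IL-8. The other libraries cover the lines HN6 and Cal27 with the same treatment, and all 3 lines transfected with a plasmid carrying ACLY or with its vector. All cells were kept in DMEM with 10% fetal bovine serum from which exosomes had been removed, so this serum is common to the treated and the untreated cells. RNA selected on poly-T beads was sequenced, and the values are read counts per gene. The 6 libraries held 16570601 to 19197976 counts. Libraries of a group carry the numbers 1 to 3, with no word on whether each came from its own culture. The p-values therefore cover only variation among these libraries, part or all of which may be technical. In bulk RNA, a change in the share of cells in one state and a change of RNA per cell cannot be told apart.

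IL-8, the product of CXCL8, is a chemokine best known for drawing neutrophils. It binds the G protein-coupled receptors CXCR1 and CXCR2, which signal to ERK and AKT kinases and can feed NF-kB. Squamous carcinoma cells commonly secrete IL-8 themselves together with related chemokines, IL-1 and EGF receptor ligands. NF-kB is held in the cytoplasm by inhibitors that are themselves NF-kB targets, hypoxia-inducible factors raise genes of acid export, angiogenesis and glycolysis, and ATF4 raises genes of amino acid supply when translation initiation is restrained.

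Promoters of 9 genes that stood out in this comparison and hold the short motif known for their pathway are shown. Sequences are from RefSeq (build GRCh38.p14), run 5′ to 3′ on the gene's own strand, hold only bases upstream of the RefSeq start (the GENCODE models of some genes start farther upstream), and are in lower case with the motif in capitals. CXCL8 and CXCL2, chemokines that were lower with IL-8, carry the kB form GGAATTTCC, the binding motif of NF-kB. CA9 and ANGPTL4, which were lower, carry ACGTG (or its reverse complement), the core of the hypoxia response element. CHAC1, which was lower, carries TGATGCAA as its reverse complement, a composite element bound by ATF4 and its partners. CDC20 and PLK1, mitotic genes that were higher, carry TTTGAA, the cell cycle homology region of genes that peak before division. HSPA1A, which was higher, carries GAANNTTC, part of the heat shock element. ACLY, which was higher, carries the CCAAT box. In the windows of 8 other genes the motif looked for was not found, and they are not shown: TTTGAA for KIF20A, ACGTG for EGLN3, GAANNTTC for HSPH1, TGATGCAA for DDIT3 and ASNS, CACGTG for TXNIP, CACCCCAC (a sterol response element) for HMGCS1 and the CCAAT box for VCAN.
CXCL8 (chr4:73740433-73740531, plus strand): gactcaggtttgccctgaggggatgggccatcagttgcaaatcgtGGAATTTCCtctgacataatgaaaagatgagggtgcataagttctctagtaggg
CXCL2 (chr4:74099219-74099317, minus strand): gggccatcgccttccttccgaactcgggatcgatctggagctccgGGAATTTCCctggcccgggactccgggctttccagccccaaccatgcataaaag
CA9 (chr9:35673865-35673927, plus strand): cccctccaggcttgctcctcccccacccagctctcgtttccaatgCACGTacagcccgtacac
ANGPTL4 (chr19:8363905-8363970, plus strand): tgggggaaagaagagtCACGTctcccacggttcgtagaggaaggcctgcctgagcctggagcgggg
CHAC1 (chr15:40953221-40953314, plus strand): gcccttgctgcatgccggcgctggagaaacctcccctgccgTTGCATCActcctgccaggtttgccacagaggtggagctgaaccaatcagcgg
CDC20 (chr1:43358758-43358966, plus strand): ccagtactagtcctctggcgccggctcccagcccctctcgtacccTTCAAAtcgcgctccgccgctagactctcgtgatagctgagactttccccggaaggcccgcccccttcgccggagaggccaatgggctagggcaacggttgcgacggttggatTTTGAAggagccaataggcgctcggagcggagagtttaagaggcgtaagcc
PLK1 (chr16:23678815-23678888, plus strand): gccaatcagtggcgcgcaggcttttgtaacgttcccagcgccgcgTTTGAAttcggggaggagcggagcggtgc
HSPA1A (chr6:31815392-31815489, plus strand): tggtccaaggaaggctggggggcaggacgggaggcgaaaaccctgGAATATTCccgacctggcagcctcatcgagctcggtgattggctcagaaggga
ACLY (chr17:41919023-41919132, minus strand): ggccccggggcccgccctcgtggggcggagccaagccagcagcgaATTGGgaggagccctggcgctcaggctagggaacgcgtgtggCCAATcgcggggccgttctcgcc

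Motifs were searched on both strands of the RefSeq windows of 250 bases before to 50 after the start, which were found for 10292 of the 12684 protein-coding genes tested. TTTGAA stood in 9.36% of these windows, in 23 of 34 from the list of mitosis and spindle genes (67.6%), in 34.9% of the genes raised beyond 1.5-fold and in 4.76% of those lowered beyond 1.5-fold. The CCAAT box stood in 36.8% of all windows, in 79.4% of those of the mitosis list and in 83.3% of those of the cholesterol synthesis list. ACGTG, which every E box CACGTG also holds, stood in 26.5% of all windows and in 18 of 30 of the hypoxia list. GGAATTTCC stood in 0.457% of all windows and in 5 of 15 of the NF-kB list (33.3%). GAANNTTC stood in 4.67% of all windows and in 8 of 27 of the chaperone list (29.6%), and TGATGCAA in 0.486% of all windows and in 1 of 25 of the ATF4 list (4.0%). The list members are known targets of these pathways, so the shares describe the lists and are not evidence that a factor acted in these cells.

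Both IL-8 receptors were at the edge of detection in HN4, while ACLY was well read and higher with IL-8. CXCR1 had 0, 0 and 1 reads in the untreated libraries and 0 in each IL-8 library, where 0 allows up to 0.164 to 0.181 CPM (3 counts of a library's total, counting error only). CXCR2 had 3, 1 and 7 reads untreated and 1, 1 and 2 with IL-8. Neither receptor passed by edgeR (adjusted p = 0.488 for CXCR1 and 0.264 for CXCR2), and no difference could be detected at this depth. ACLY (chr17:41866908-41930542, minus strand, hg38), the enzyme that splits citrate into acetyl-CoA and oxaloacetate in the cytosol, stood at 374, 379.8 and 369.6 CPM in the untreated libraries and 1326, 1358 and 1346 CPM with IL-8. Its log2 change was 1.84 with a standard error (SE) of 0.0336 (edgeR adjusted p = 7.87e-36).

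The HN4 libraries of the plasmid experiment bear on the labels of this comparison. Libraries labelled vector held 25343 to 29445 ACLY reads and those labelled ACLY 5645 to 6447, so every library of both groups goes against its label. Across 14251 genes, the median squared difference between 2 libraries over its sampling noise was 2.43 to 2.93 between an IL-8 and a vector-labelled library, 7.13 to 9.27 between an IL-8 and an untreated one, and 1.74 to 2.31 between replicates of the IL-8 or the untreated group, where 1 is sampling noise alone. The same measure was 10.9 to 12.2 between an untreated and a vector-labelled library, and 3.21 to 7.54 between an untreated and an ACLY-labelled one. In an edgeR fit of the 12 HN4 libraries, 34 of 16375 genes differed between IL-8 and the libraries labelled vector (0.208%), 33 of them higher in IL-8, and 549 differed between untreated HN4 and the libraries labelled ACLY (3.35%). The first count was 312 when only those 6 libraries were fitted, and the second was 95 in the same way and 1146 without the third library labelled ACLY, which had 2.15% of its counts on mitochondrial genes. Whether the differences described below come from IL-8 or from whatever the IL-8 and vector-labelled libraries share cannot be told apart in HN4.

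Some genes nonetheless set the IL-8 libraries apart from the libraries labelled vector. NDRG1, a hypoxia-induced gene, stood at 448, 443 and 443 CPM untreated, 163, 155 and 165 CPM with IL-8, 94.1, 96.6 and 95.1 CPM labelled vector and 374, 386 and 359 CPM labelled ACLY, with scaling over the 12 libraries. The IL-8 libraries lay between the untreated libraries and those labelled vector, with no overlap. PLAU, TXNIP, CXCL8, CA9 and CSF2 were also among the 33 genes higher with IL-8 than in the libraries labelled vector, and all stood below untreated HN4.

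**Figure D1:**
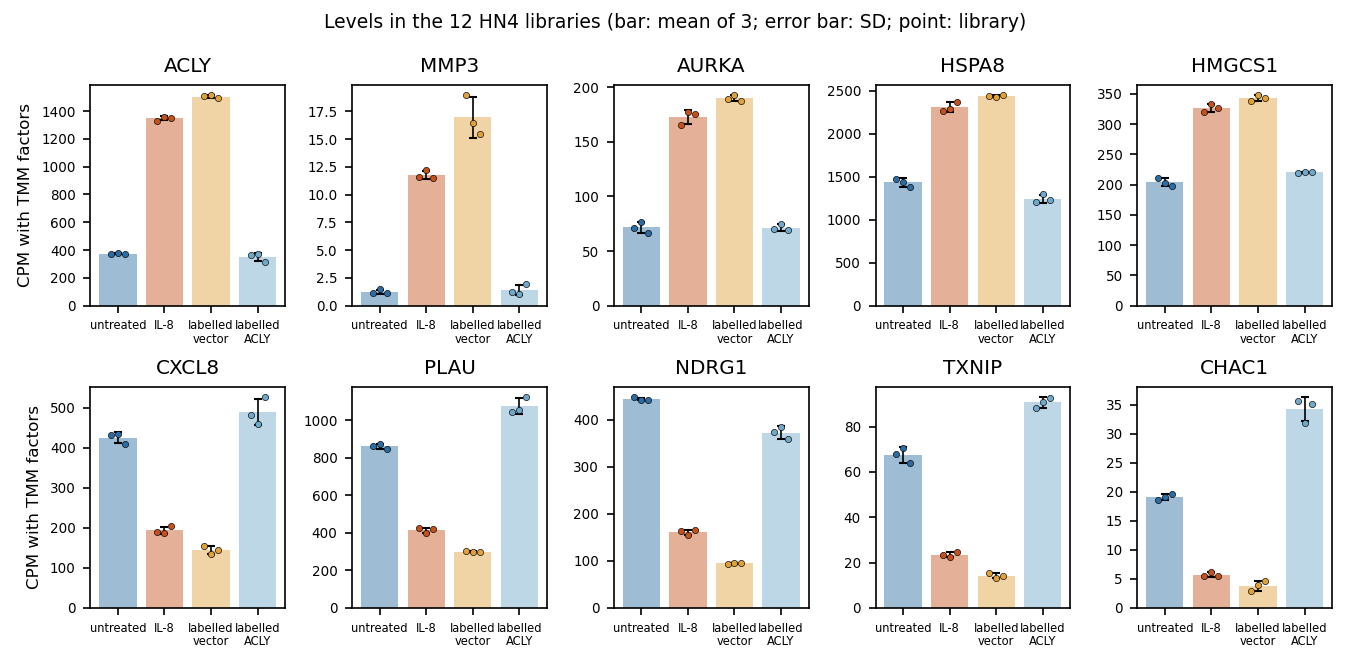
Levels of 10 genes in the 12 HN4 libraries, in CPM with TMM factors over these libraries; bars are means of 3 libraries, error bars SD and points single libraries. ACLY stood at 375 CPM on average untreated and 1343 CPM with IL-8 in the 6-library scaling. The IL-8 libraries lay between the untreated libraries and those labelled vector for every gene shown. These include genes that rose (ACLY, MMP3, AURKA, HSPA8 and HMGCS1) and genes that fell (CXCL8, PLAU, NDRG1, TXNIP and CHAC1).

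Markers of the tissue and of the other lines were read in the 6 libraries, here in CPM of library totals without TMM factors. The squamous markers KRT5, TP63, EPCAM, CDH1, KRT8 and KRT18 were read in every library, while KRT14, a basal keratin, had 1 read in all and was not detectable at this depth. The 10 squamous markers summed to 2873 to 2933 CPM untreated and 3402 to 3453 CPM with IL-8, but did not move together: of 9 tested, 6 were higher and 3 lower. Most of the sum is KRT8, at 1351 to 1395 CPM untreated and 1778 to 1796 CPM with IL-8, and KRT18, at 497 to 515 and 635 to 636 CPM. TP63, the basal squamous transcription factor, fell from 201 to 210.2 CPM untreated to 178 to 188 CPM with IL-8. CDH1, E-cadherin, fell from 253 to 269 CPM to 211 to 219 CPM, and DSG3, a desmosomal cadherin, from 22.0 to 23.7 CPM to 17.6 to 19.5 CPM. The 8 fibroblast markers summed to 9.65 to 11.8 CPM and 5.84 to 7.18 CPM, with COL1A2 and DCN at 0 reads. The 8 leukocyte markers summed to 6.13 to 7.29 and 5.48 to 6.58 CPM, with FCGR3B at 0 reads and PTPRC at 1 read, and the 5 endothelial markers to 4.57 to 5.10 and 3.92 to 5.03 CPM. For 9 genes with a mean of at least 20 CPM in untreated Cal27 and at most 0.3 CPM in untreated HN6 and in the HN4 libraries labelled ACLY, no HN4 library of the comparison held more than a share of 0.00777 of the Cal27 level, and for 7 such genes of HN6 the highest share was 0.0203. Mitochondrial genes took 5.39% to 6.24% of the counts untreated and 5.40% to 5.64% with IL-8, and 24587 to 25003 genes had a read untreated against 23796 to 24267 with IL-8.

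With IL-8, many genes moved by small amounts and few moved far. Most listed genes of mitosis, protein folding, ribosome assembly and cholesterol synthesis rose, while most secreted cytokines, NF-kB targets, hypoxia genes and ATF4 targets fell, as did more long noncoding RNAs than rose. By edgeR's quasi-likelihood test on the 6 libraries (Benjamini-Hochberg adjusted p under 0.05), 6550 of 15674 genes passed, 3408 higher with IL-8 (21.7%) and 3142 lower (20.05%). These genes are called higher or lower below, and the 2 shares are the background for every gene list. Of the 6550, 2492 (38.0%) changed by less than 1.2-fold, 2674 (40.8%) by 1.2 to 1.5-fold, 920 by 1.5 to 2-fold and 464 (7.08%) by 2-fold or more, 93 of these higher and 371 lower. A test against a limit of 1.5-fold (edgeR glmTreat) passed 208 genes (1.33%), 86 higher and 122 lower. In 7822 genes (49.9%) the 3 and 3 libraries did not overlap. The median log2 change over all genes tested was -0.01, with the 5th percentile at -0.79 and the 95th at 0.45. The split of the calls rests on the scaling: it was 3408 to 3142 with TMM factors, 2677 to 3827 with library size alone and 2469 to 4082 with upper-quartile scaling. With the 18 libraries of all 3 lines in 1 fit, 2567 genes passed, and fewer passed in every list described below.

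**Figure D2:**
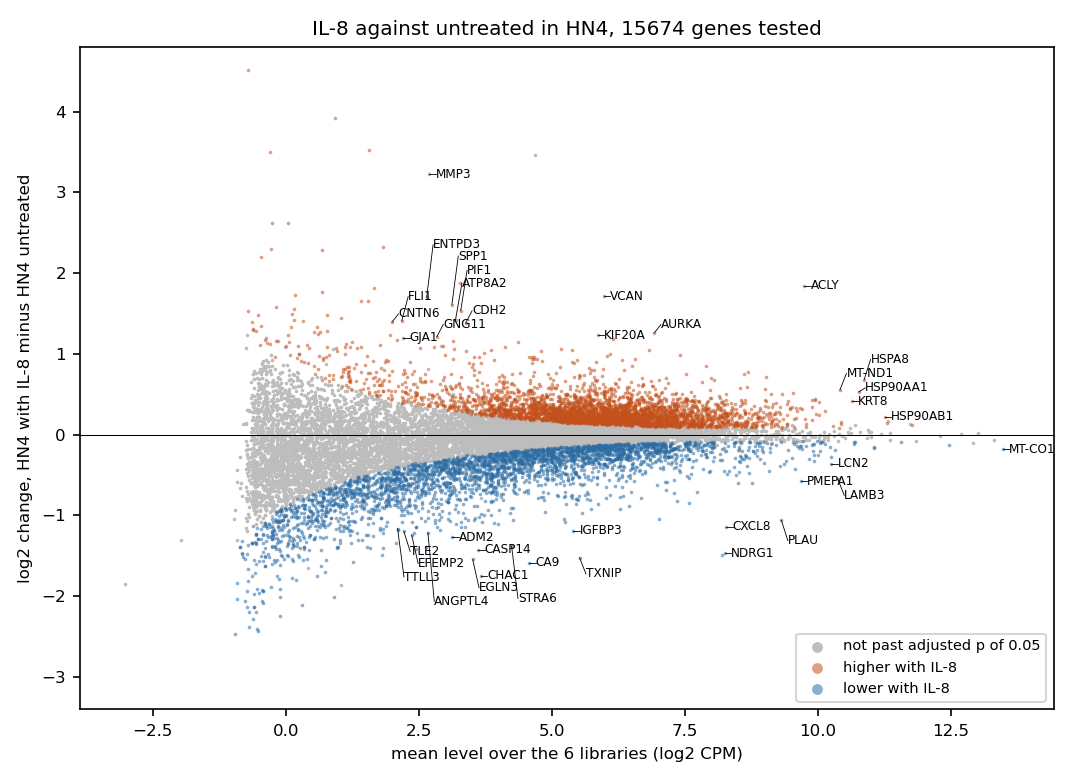
Log2 change with IL-8 (vertical axis) against the mean level over the 6 libraries in log2 CPM (horizontal axis) for each gene tested in HN4, with genes past an adjusted p of 0.05 in orange (higher) and blue (lower) and the genes named for size or CPM labelled. MMP3 lies at 3.22 and CHAC1 at -1.75, and the large changes below 0 outnumber those above 0 among weakly expressed genes.

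Calls of a rise were more frequent among highly expressed genes, but large rises were not. The genes called higher held 32.7% to 33.2% of the CPM of the tested genes in the untreated libraries and 37.8% to 38.5% with IL-8, and those called lower 21.5% to 21.7% and 17.5% to 17.7%. The direction of these shares follows from the choice of the genes in the same libraries, and only their size is described. Across quintiles of mean level, 93 of 3135 genes were called higher and 505 lower in the lowest quintile, and 1363 (43.5%) and 543 in the highest. Calls of 2-fold or more were 52 higher and 289 lower in the lowest quintile, and 3 and 5 in the highest. The median log2 change was -0.28 in the lowest and 0.07 in the highest. Small changes pass more easily in well-read genes, and how far this shaped the counts was not tested. HSPA8, the constitutive HSP70 chaperone, had the second largest gain in CPM after ACLY, with 1479.8, 1442 and 1389 CPM in the untreated libraries and 2258, 2282 and 2369 CPM with IL-8. HSP90AA1 and HSP90AB1, the inducible and constitutive cytosolic HSP90, went from 1428 ± 63.3 to 2059 ± 108 CPM and from 2258 ± 82.6 to 2629 ± 81.6 CPM, and KRT8, a simple epithelial keratin, from 1360.0 ± 15.7 to 1813 ± 11.7 CPM. The largest losses in CPM were those of MT-CO1, LAMB3, PLAU, PMEPA1, LCN2 and NDRG1. PLAU, the urokinase plasminogen activator, stood at 859.7, 875 and 848 CPM in the untreated libraries and 422, 396 and 417 CPM with IL-8, and LAMB3, the beta chain of laminin-332, at 1556, 1585 and 1594 CPM in the untreated libraries and 1098, 1067 and 1062 CPM with IL-8. PMEPA1, a TGF-beta target that restrains SMAD signals, went from 978 ± 1.12 to 655 ± 4.88 CPM, and LCN2, an iron-siderophore carrier induced by inflammation, from 1371 ± 48.9 to 1068 ± 54 CPM. MT-CO1, a mitochondrially encoded subunit of cytochrome oxidase, went from 12111 ± 134 to 10674 ± 341 CPM (0.881-fold).

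The 14 largest rises included genes of matrix, adhesion and mitosis. MMP3, stromelysin 1 (chr11:102835801-102843803, minus strand), stood at 1.12, 1.47 and 1.17 CPM in the untreated libraries and 11.5, 12.2 and 11.5 CPM with IL-8, a 9.35-fold rise (log2 3.22, SE 0.167, edgeR adjusted p = 2.36e-19). VCAN, the matrix proteoglycan versican (chr5:83471465-83582303, plus strand), stood at 30.6, 28.5 and 29.6 CPM in the untreated libraries and 90.7, 102 and 98.2 CPM with IL-8 (3.27-fold, log2 SE 0.0562, edgeR adjusted p = 2.57e-26). All IL-8 libraries of both genes lay above all untreated ones. SPP1, osteopontin, a secreted integrin ligand, rose from 4.27 ± 0.641 to 13.1 ± 0.816 CPM (3.05-fold). ENTPD3, an ectonucleotidase, rose from 2.93 ± 0.266 to 9.55 ± 0.475 CPM (3.25-fold), and PIF1, a helicase of telomeres and forks, from 4.99 ± 0.99 to 14.5 ± 1.34 CPM (2.9-fold). CDH2, N-cadherin, rose from 5.77 ± 0.314 to 15 ± 2.08 CPM (2.61-fold), and GJA1, the gap junction protein connexin 43, from 2.76 ± 0.534 to 6.3 ± 1.58 CPM (2.29-fold). The adhesion protein CNTN6, the phospholipid flippase ATP8A2, the ETS factor FLI1 and the G protein subunit GNG11 rose 2.63-fold, 2.68-fold, 2.66-fold and 2.32-fold. ACLY, described above, the mitotic kinase AURKA and the kinesin KIF20A complete the 14 genes.

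The largest falls included genes of stress, hypoxia and growth factor control. CHAC1, an ATF4 target that degrades glutathione (chr15:40952962-40956519, plus strand), stood at 18.7, 19.1 and 19.6 CPM in the untreated libraries and 5.44, 6.17 and 5.41 CPM with IL-8 (log2 change -1.75, SE 0.107, edgeR adjusted p = 4.64e-17). TXNIP, the thioredoxin-interacting arrestin relative that limits glucose uptake, stood at 67.9, 70.8 and 64.1 CPM in the untreated libraries and 23.2, 22.5 and 24.7 CPM with IL-8 (log2 change -1.53, SE 0.0623). CASP14, the caspase of cornifying skin, fell from 17.6 ± 1.1 to 6.54 ± 0.416 CPM, and STRA6, the retinol-binding protein receptor, from 27 ± 2.44 to 10.4 ± 1.1 CPM. IGFBP3, which binds insulin-like growth factors, fell from 58.3 ± 4.89 to 25.6 ± 0.402 CPM, and ADM2, a peptide hormone, from 12.1 ± 0.936 to 5.01 ± 0.558 CPM. The matrix protein EFEMP2 fell by 1.25 and the tubulin glycine ligase TTLL3 by 1.16 on the log2 scale, and the co-repressor TLE2 fell from 6.3 ± 1.04 to 2.75 ± 0.849 CPM. The hypoxia genes CA9, EGLN3, NDRG1 and ANGPTL4 were also among them.

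**Figure D3:**
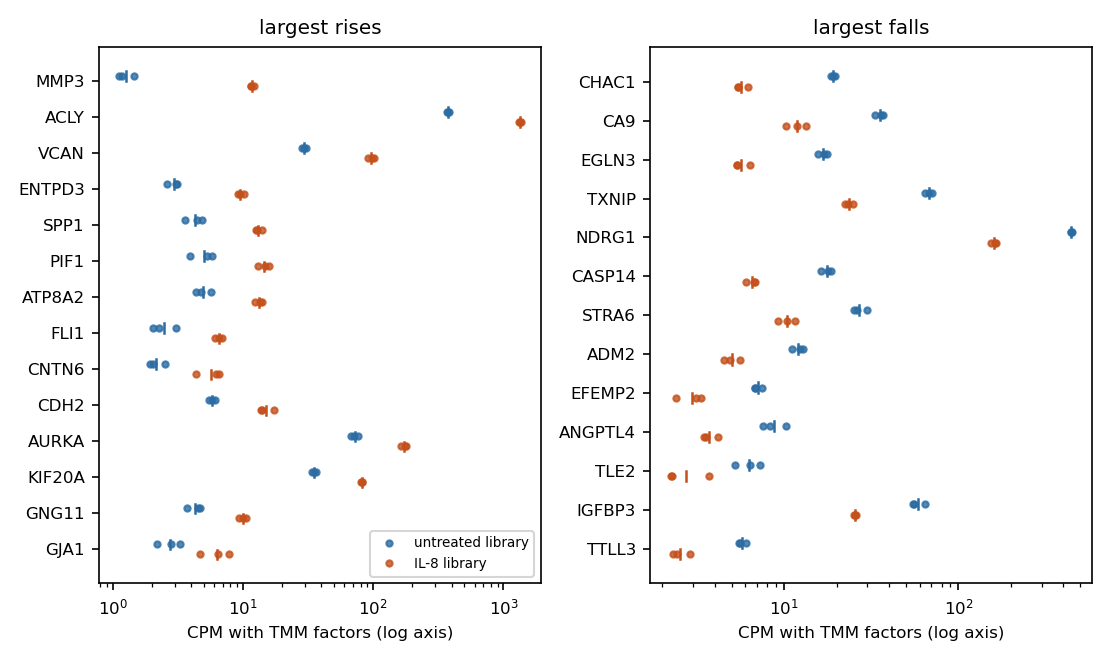
CPM with TMM factors (log axis) of coding genes among the 14 largest increases (left) and the 14 largest decreases (right), each with a mean of at least 2 log2 CPM, 1 point per library and a bar at the mean of each group of 3. The untreated and IL-8 libraries do not overlap for any gene shown, as the choice of genes required.

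Most listed secreted signals of HN4 itself were lower with IL-8, CXCL8 among them. Of 38 tested growth factors and cytokines 22 were called lower and 3 higher (57.9% and 7.89%, against 20.05% and 21.7% of all genes), with a median log2 change of -0.31. CXCL8 (chr4:73740506-73743716, plus strand) stood at 433, 434 and 412 CPM in the untreated libraries and 190.0, 187 and 204 CPM with IL-8, a log2 change of -1.14 (SE 0.0378, edgeR adjusted p = 3.09e-26). CXCL2, another neutrophil chemokine, fell from 56.9 ± 3.71 to 32.6 ± 1.33 CPM and TNF from 18.1 ± 0.865 to 10.3 ± 0.563 CPM. HBEGF, a ligand of the EGF receptor, fell from 245 ± 6.05 to 137 ± 4.15 CPM (log2 change -0.84). Outside the rule for named genes, and chosen after their values were seen, the 3 that rose were EREG, another EGF receptor ligand, FGF2 and VEGFC (1.31-fold, 1.34-fold and 1.13-fold).

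Receptors and downstream targets moved less uniformly, apart from NF-kB targets. Of 33 receptors 12 were lower and 7 higher. INSR, the insulin receptor, was lower, from 2.52 ± 0.0923 to 1.47 ± 0.525 CPM, and IL1R1, the IL-1 receptor, and F2R, the thrombin receptor, were higher, from 5.57 ± 0.674 to 7.23 ± 0.41 CPM and 18.9 ± 0.854 to 24.6 ± 0.421 CPM. INSR no longer passed when IL-8 replicate 1 or 2 was omitted (log2 change -0.69 and -0.58). IL1R1 no longer passed under either other scaling (0.33 and 0.32), or when IL-8 replicate 1 or 2 (0.34 and 0.38) or untreated replicate 2 (0.28) was omitted. Of 17 NF-kB factors, inhibitors and targets 14 were lower and 0 higher (median log2 change -0.35). TNFAIP3 (A20), a deubiquitinase that shuts NF-kB down, stood at 210.5, 213 and 201 CPM in the untreated libraries and 116, 115 and 121 CPM with IL-8. TRAF1, an adaptor of TNF receptors, fell from 11.7 ± 0.456 to 6.18 ± 0.511 CPM, BIRC3, a ubiquitin ligase of the same complexes, from 102 ± 0.396 to 71.2 ± 2.25 CPM, and RELB, an NF-kB subunit, from 40.7 ± 1.12 to 28.5 ± 2.83 CPM. The ERK feedback list had 6 of 17 lower and 2 higher (median -0.05): EGR1, an immediate early factor, fell from 69.1 ± 6.17 to 36.4 ± 0.989 CPM and the ERK phosphatase DUSP6 from 103 ± 3.03 to 80.5 ± 1.9 CPM, while CCND1, cyclin D1, rose from 273 ± 2.66 to 355 ± 3.49 CPM. Of 15 YAP and TAZ targets 8 were higher and 2 lower (median 0.12), or 5 and 3 with upper-quartile scaling and 4 and 0 with 18 libraries. CTGF and CYR61, secreted matricellular targets of YAP, rose from 7.15 ± 1.02 to 10.9 ± 1.56 CPM and 143 ± 4.41 to 195 ± 9.07 CPM. With 18 libraries in 1 fit, 16 of the 38 secreted factors and 7 of the 17 NF-kB genes were lower, and 1 receptor was.

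**Figure D4:**
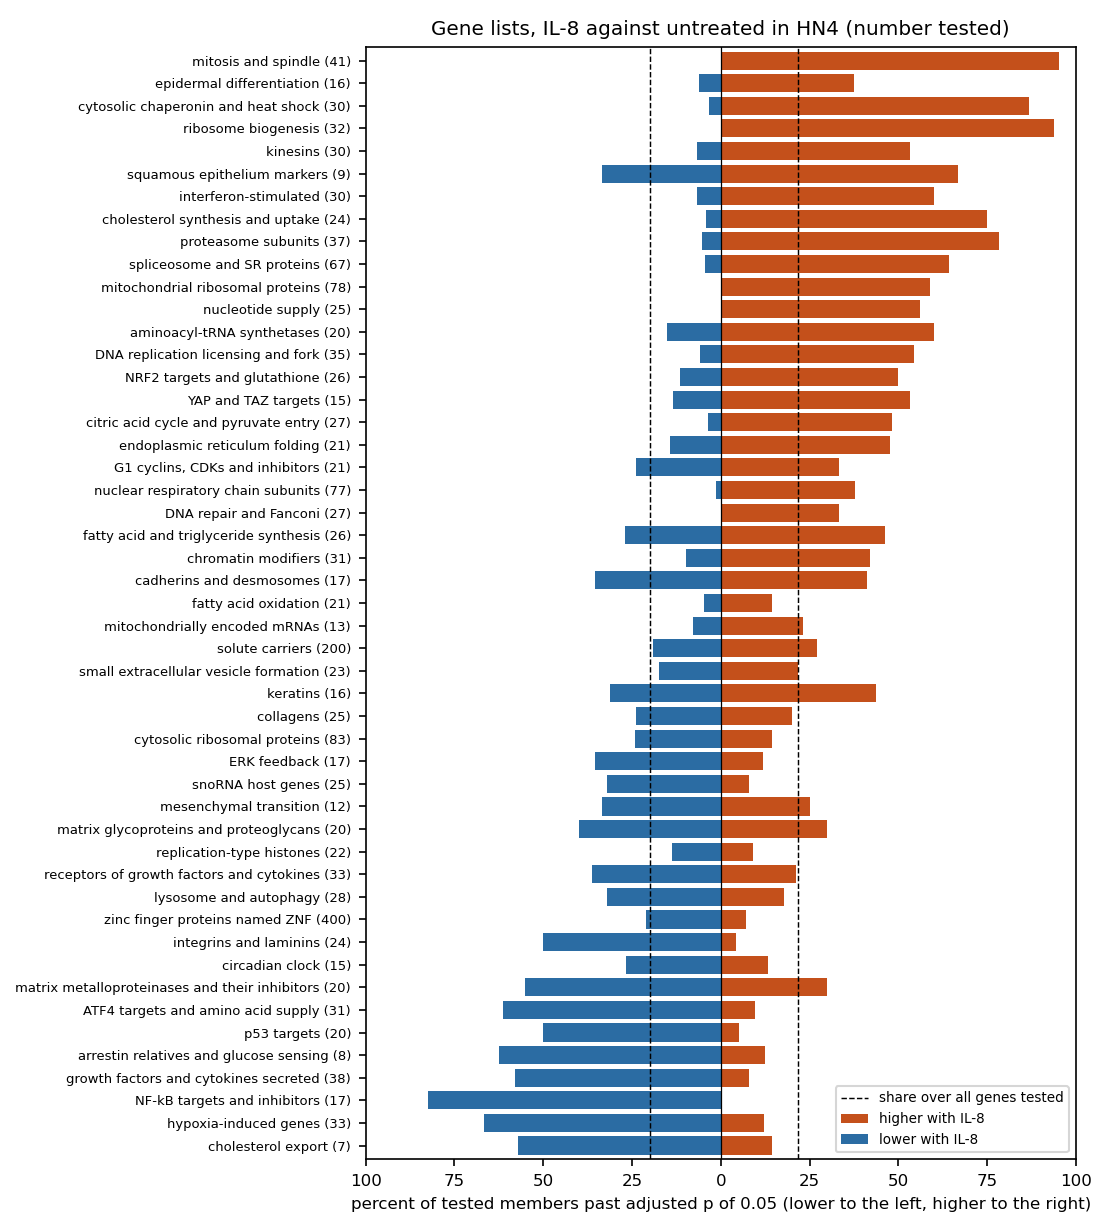
Share of the tested members of each gene list called higher (orange, to the right) and lower (blue, to the left) with IL-8 in HN4, ordered by median log2 change, with dashed lines at the shares over all genes tested (21.7% higher, 20.05% lower). Mitosis and spindle genes had 39 of 41 members higher, and NF-kB targets 14 of 17 lower.

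Most hypoxia genes fell. Of 33 hypoxia-induced genes 22 were lower and 4 higher (median log2 change -0.37; 17 and 1 with 18 libraries). CA9, a carbonic anhydrase that exports acid, stood at 33.4, 36.8 and 36.1 CPM in the untreated libraries and 11.8, 10.3 and 13.3 CPM with IL-8 (log2 change -1.59, SE 0.0852). EGLN3, a prolyl hydroxylase that marks hypoxia-inducible factors for decay, fell from 16.7 ± 0.945 to 5.69 ± 0.565 CPM, and ANGPTL4, an inhibitor of lipoprotein lipase, from 8.7 ± 1.35 to 3.73 ± 0.386 CPM. NDRG1 fell from 445 ± 2.59 to 160.5 ± 5.51 CPM (log2 change -1.47, SE 0.0367, edgeR adjusted p = 1.2e-30). The 4 higher members, named after their values were seen, were ENO1, LDHA and GPI of glycolysis (1.11-fold, 1.11-fold and 1.1-fold) and the peptide ADM (1.29-fold).

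TXNIP fell, as did several relatives and a factor that reads glucose. Of 8 arrestin relatives and glucose-sensing factors 5 were lower and 1 higher. ARRDC3, an adaptor that sends receptors to degradation, fell from 55.8 ± 1.12 to 32.1 ± 1.76 CPM, and MLXIPL (ChREBP), which drives TXNIP when glucose is plentiful, from 6.81 ± 0.58 to 3.22 ± 0.178 CPM. ARRDC4 and ARRDC2 fell by 0.33 and 0.24 on the log2 scale, and neither passed when IL-8 replicate 1, IL-8 replicate 3 or untreated replicate 1 was omitted. ARRDC2 also failed with DESeq2 and when untreated replicate 2 was omitted. MLX, the partner of MLXIPL, was 1.15-fold higher, while MLXIP and ARRDC1 were at log2 -0.03 and 0.10 and did not pass.

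Targets of ATF4 and p53 were lower more often than higher. Of 31 ATF4 targets and genes of amino acid supply 19 were lower and 3 higher (median log2 change -0.22; 13 and 2 with 18 libraries). ASNS, asparagine synthetase, fell from 7.3 ± 1.64 to 3.28 ± 0.349 CPM, NUPR1, a stress-induced nuclear protein, from 2.11 ± 0.351 to 0.625 ± 0.254 CPM, and ADM2 by 1.27 on the log2 scale. Of 20 p53 targets 10 were lower and 1 higher (median -0.28; 6 and 0 with 18 libraries). BBC3 (PUMA), a trigger of apoptosis, fell from 25.7 ± 1.13 to 12.2 ± 1.4 CPM, BTG2, an antiproliferative gene, from 13.2 ± 0.997 to 6.69 ± 0.53 CPM, and SESN2 and TP53INP1, stress-induced regulators of growth and autophagy, from 49 ± 3.9 to 27 ± 1.75 CPM and 23.1 ± 1.11 to 15.7 ± 0.107 CPM.

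Proteases, collagens and glycoproteins of the matrix held both rises and falls, while the integrins and laminins that were called were lower with 1 exception. Of 20 matrix metalloproteinases, plasminogen activators and inhibitors 11 were lower and 6 higher (median log2 change -0.21), or 3 higher with upper-quartile scaling. MMP1, interstitial collagenase, rose with MMP3 from 0.516 ± 0.0528 to 2.54 ± 0.299 CPM. Among 25 collagen chains 6 were lower and 5 higher: COL4A3 and COL4A4, neighbours that share a promoter region and encode basement membrane chains, rose from 0.799 ± 0.311 to 2 ± 0.354 CPM and 1.36 ± 0.204 to 4.31 ± 0.207 CPM, COL13A1, a membrane collagen, rose from 2.46 ± 0.307 to 4.71 ± 0.873 CPM, and COL28A1 fell from 9.59 ± 0.588 to 4.36 ± 1.31 CPM. Of 24 integrins and laminins 12 were lower and 1 higher (median -0.14; 3 and 1 with 18 libraries). ITGB2 and ITGB6, the integrin beta chains of leukocytes and of TGF-beta activation, fell from 78.8 ± 0.693 to 50.4 ± 2.36 CPM and 93.3 ± 4.09 to 65.6 ± 2.03 CPM, and the laminin chain LAMB2 from 179 ± 2.49 to 134 ± 8.31 CPM. Of 20 matrix glycoproteins and proteoglycans 8 were lower and 6 higher; THBS1, thrombospondin 1, rose from 303 ± 13.6 to 517 ± 21.4 CPM and MATN2, a matrilin, fell from 10.4 ± 2.61 to 5.95 ± 0.493 CPM.

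Junction, keratin and differentiation genes gave mixed counts. Of 17 cadherins and desmosome genes 7 were higher and 6 lower, or 5 and 7 with upper-quartile scaling. CDH1, E-cadherin, fell from 258 ± 8.11 to 218 ± 3.71 CPM and JUP, plakoglobin, from 405 ± 18 to 337 ± 8.81 CPM, while CDH2 rose and DSC3, a desmosomal cadherin, rose from 18.9 ± 1.58 to 31.2 ± 0.608 CPM. Of 16 keratins 7 were higher and 5 lower (6 and 6 with either other scaling), with KRT15, a basal keratin, falling from 62 ± 2.83 to 31.7 ± 1.98 CPM and KRT6A rising from 5.72 ± 1.52 to 12 ± 1.83 CPM; KRT6A shares sequence with other type 6 keratins and is uncertain. Of 16 genes of epidermal differentiation 6 were higher and 1 lower (median log2 change 0.40). SPRR2A and SPRR2D, cornified envelope precursors with near-identical relatives, rose from 0.249 ± 0.185 to 1.62 ± 0.274 CPM and 1.25 ± 0.324 to 3.96 ± 0.568 CPM, S100A7 rose from 5.47 ± 0.321 to 12.2 ± 0.173 CPM, and SPINK5, a protease inhibitor of skin, fell from 2.65 ± 0.607 to 1.15 ± 0.385 CPM. In the list of mesenchymal transition genes 4 of 12 were lower and 3 higher; SNAI2, a repressor of E-cadherin, fell from 21.3 ± 0.324 to 15.2 ± 1.25 CPM and the receptor AXL rose from 111 ± 3 to 134 ± 2.88 CPM.

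Nearly all listed genes of mitosis rose. Of 41 mitosis and spindle genes 39 were higher and 0 lower (median log2 change 0.60; 37 and 0 with 18 libraries). AURKA, the kinase of spindle poles, stood at 71.4, 76.9 and 67.2 CPM in the untreated libraries and 164, 177 and 175 CPM with IL-8 (log2 change 1.26, SE 0.0461, edgeR adjusted p = 1.25e-24). PLK1, polo-like kinase 1, stood at 25.2, 28.6 and 27.4 CPM in the untreated libraries and 57.7, 55.8 and 54.3 CPM with IL-8, and CDC20, the activator of the anaphase-promoting complex, rose from 74.2 ± 5.18 to 153 ± 2.93 CPM. CCNB1, cyclin B1, rose from 114 ± 4.39 to 225 ± 5.19 CPM (1.97-fold). Of 30 kinesins 16 were higher and 2 lower (median 0.27), and the mitotic motors KIF20A, KIF18A, KIF20B and KIF14 rose 2.34-fold, 1.71-fold, 1.74-fold and 1.7-fold.

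Of 35 genes of replication licensing and forks 19 were higher and 2 lower (median log2 change 0.14), or 8 and 0 with 18 libraries. GINS1, of the replicative helicase, rose from 46.1 ± 0.673 to 65.6 ± 2.93 CPM, RFC3, of the clamp loader, from 153 ± 4.41 to 201 ± 3.03 CPM, FEN1, the flap nuclease, from 116 ± 2.74 to 152 ± 3.57 CPM and CLSPN, a checkpoint mediator, from 37.4 ± 1.02 to 48.6 ± 1.78 CPM. Of 25 genes of nucleotide supply 14 were higher and 0 lower (median 0.16; 7 with 18 libraries); PRPS1, which makes phosphoribosyl pyrophosphate, rose 1.38-fold and CTPS1, CTP synthase, 1.34-fold. Of 21 G1 cyclins, kinases and inhibitors 7 were higher and 5 lower: the inhibitors CDKN2B (p15) and CDKN1A (p21) fell from 24.3 ± 0.635 to 12.4 ± 1.62 CPM and 411 ± 13.9 to 289 ± 4.78 CPM, and the phosphatase CDC25A rose from 43.7 ± 0.851 to 60.2 ± 4.69 CPM. Of 27 genes of DNA repair 9 were higher and 0 lower (5 with library size alone, 4 with upper-quartile scaling, where the median was -0.01), with the mismatch protein MSH6 and the helicase BLM at 1.25-fold and 1.24-fold. Of 22 replication-type histone genes read in polyadenylated RNA 2 were higher and 3 lower. Of 31 chromatin modifiers 13 were higher and 3 lower with TMM factors and 6 and 5 with upper-quartile scaling. DNMT3B, a DNA methyltransferase, rose from 13 ± 0.792 to 20.4 ± 1.96 CPM, EED, of polycomb complex 2, from 42.5 ± 1.61 to 54.5 ± 2.46 CPM, and the histone demethylases KDM6B and KDM3A fell from 44.5 ± 3.41 to 31.7 ± 1.96 CPM and 38.3 ± 2.41 to 28.6 ± 0.447 CPM.

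Nearly all listed genes that build ribosomes rose, while cytosolic ribosomal proteins gave a mixed count. Of 32 ribosome biogenesis genes 30 were higher and 0 lower (median log2 change 0.35; 19 with 18 libraries). LYAR, a nucleolar protein, rose from 16.9 ± 1.53 to 32.7 ± 2.19 CPM, NOP16 from 27.1 ± 0.472 to 40.5 ± 1.7 CPM, UTP20 from 52 ± 3.31 to 73.9 ± 3.99 CPM and RRS1 from 42.1 ± 0.56 to 59.2 ± 1.75 CPM, all factors of pre-ribosome assembly. Of 83 cytosolic ribosomal protein genes 12 were higher and 20 lower (median -0.04), and 33 or 38 were lower with library size alone or upper-quartile scaling; these genes have many processed copies that can share reads. Among those that were higher, RPL22L1 and RPL17 rose from 42 ± 1.63 to 63.6 ± 2.96 CPM and 21.1 ± 2.35 to 27.5 ± 1.42 CPM. Of 78 mitochondrial ribosomal protein genes 46 were higher and 0 lower (median 0.17; 8 and 0 with 18 libraries), with MRPL12 and MRPL3 at 1.34-fold and 1.34-fold. Of 20 cytosolic aminoacyl-tRNA synthetases 12 were higher and 3 lower (median 0.15; 3 and 0 with 18 libraries), led by LARS, the leucine enzyme, at 1.25-fold.

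Most chaperones of the cytosol and most genes of splicing and protein decay were higher. Of 30 cytosolic chaperonin and heat shock genes 26 were higher and 1 lower (median log2 change 0.40; 20 and 0 with 18 libraries). HSPH1, a nucleotide exchange factor of HSP70, stood at 301, 292 and 284 CPM in the untreated libraries and 476, 504 and 495 CPM with IL-8 (log2 SE 0.0355, edgeR adjusted p = 1.06e-20). CHORDC1, an HSP90 partner, rose from 65.1 ± 1.9 to 117 ± 4.52 CPM. HSPA1A and HSPA1B, the stress-inducible HSP70 genes, rose from 23.4 ± 0.394 to 48.5 ± 1.74 CPM and 19.6 ± 1.1 to 36.8 ± 4.52 CPM, but they are near-identical copies whose reads cannot be assigned with certainty. Of 37 proteasome subunits 29 were higher and 2 lower (median 0.21; 9 and 0 with 18 libraries), led by PSMD11 and PSMD12 of the lid (1.33-fold and 1.29-fold). Of 67 spliceosome and SR protein genes 43 were higher and 3 lower (median 0.17; 14 and 0 with 18 libraries), led by SRSF1, an SR protein that promotes exon inclusion, from 81.8 ± 6.39 to 127 ± 1.77 CPM. In the endoplasmic reticulum list 10 of 21 were higher and 3 lower (6 and 2 with 18 libraries): HSPA5 (BiP), the main luminal HSP70, rose from 416 ± 11.9 to 616 ± 20.3 CPM and MANF from 51.8 ± 1.38 to 74.1 ± 1.56 CPM, while ERN1 (IRE1), a sensor of unfolded proteins, fell from 55.5 ± 2.49 to 36.5 ± 3.77 CPM and HERPUD1, of the degradation pathway, from 67.5 ± 3.96 to 46.9 ± 2.37 CPM.

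Most cholesterol synthesis genes rose and most export genes fell. Of 24 genes of cholesterol synthesis and uptake 18 were higher and 1 lower (median log2 change 0.23; 8 and 0 with 18 libraries). HMGCS1, which makes HMG-CoA, stood at 210.5, 203 and 198 CPM in the untreated libraries and 318, 332 and 325 CPM with IL-8. IDI1, an isomerase of the pathway, rose from 111 ± 5.44 to 142 ± 4.2 CPM. Of 7 genes of cholesterol export 4 were lower and 1 higher; the transporters ABCG1 and ABCA1 fell from 3.51 ± 1.18 to 1.92 ± 0.235 CPM and 24.7 ± 1.92 to 18.6 ± 1.64 CPM and their activator NR1H3 (LXR alpha) from 16.4 ± 0.501 to 10.3 ± 0.634 CPM, and ABCG1 no longer passed when untreated replicate 2 was omitted (log2 change -0.56). LPCAT3, a phospholipid acyltransferase, was 1.2-fold higher. Of 26 genes of fatty acid and triglyceride synthesis 12 were higher and 7 lower, or 8 and 7 under library size or upper-quartile scaling, and their median of 0.05 became -0.01 under the latter. ELOVL6, an elongase, ME1, malic enzyme, and GPAM, which starts glycerolipid synthesis, were next to ACLY at 1.37-fold, 1.34-fold and 1.31-fold.

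Of 27 genes of the citric acid cycle 13 were higher and 1 lower (median log2 change 0.12; 5 and 0 with 18 libraries). IDH3A, of the mitochondrial isocitrate dehydrogenase, rose from 45.1 ± 1.81 to 67 ± 3.88 CPM, IDH1, its cytosolic counterpart, from 106 ± 3.44 to 135 ± 7.74 CPM and CS, citrate synthase, from 218 ± 10.5 to 261 ± 5.15 CPM. Of 77 nuclear subunits of the respiratory chain 29 were higher and 1 lower (median 0.10), a count that was 13 with library size alone, 9 with upper-quartile scaling and 2 with 18 libraries. Of 21 genes of fatty acid oxidation 3 were higher and 1 lower, or 1 and 4 with either other scaling. Of 13 mitochondrially encoded mRNAs 3 were higher and 1 lower, 0 and 0 with 18 libraries; MT-ND1 rose from 1105 ± 92.7 to 1625 ± 64 CPM, and its reads may be shared with nuclear copies. Of 26 NRF2 targets 13 were higher and 3 lower, or 8 and 4 with either other scaling. GCLM, which limits glutathione synthesis, rose from 57 ± 1.24 to 89.1 ± 2.99 CPM, SRXN1, sulfiredoxin, from 12.8 ± 1.82 to 17.6 ± 1.75 CPM, and HMOX1, heme oxygenase, and AKR1C3, an aldo-keto reductase, fell from 18.8 ± 1.21 to 10.7 ± 1.29 CPM and 9.18 ± 1.41 to 6.06 ± 0.578 CPM. The metallothioneins MT1X and MT1F fell from 35.6 ± 4.65 to 24.1 ± 3.4 CPM and 27 ± 0.824 to 18.2 ± 1.24 CPM, while MT2A was at a log2 change of 0.01.

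Interferon-stimulated genes were mostly higher, at low levels. Of 30 tested 18 were higher and 2 lower (median log2 change 0.24; 9 and 1 with 18 libraries). IFIT1, which binds foreign RNA ends, stood at 9.14, 9.02 and 8.1 CPM in the untreated libraries and 18.1, 18.7 and 16 CPM with IL-8. RSAD2 (viperin) rose from 3.62 ± 1.09 to 7.68 ± 0.942 CPM, OAS2, which senses double-stranded RNA, from 9.15 ± 0.497 to 15.6 ± 3.04 CPM and IFI27 from 4.39 ± 1.07 to 9.31 ± 1.66 CPM. Of 15 clock genes 4 were lower and 2 higher; the repressors BHLHE40 and BHLHE41 fell from 100.1 ± 3.23 to 66.9 ± 1.92 CPM and 17.7 ± 0.0502 to 11.8 ± 0.371 CPM, the activator ARNTL (BMAL1) fell from 16.9 ± 1.84 to 12.1 ± 0.132 CPM and the repressor CRY1 rose from 13.9 ± 0.553 to 21.8 ± 1.74 CPM.

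Counts for transport, degradation and vesicle genes depended on the scaling. Of 200 solute carriers 54 were higher and 38 lower, a split that was 41 and 51 with upper-quartile scaling. SLC2A10, a glucose transporter family member, fell from 0.764 ± 0.141 to 0.196 ± 0.0423 CPM. Of 28 genes of lysosome and autophagy 9 were lower and 5 higher, and 16 and 2 with upper-quartile scaling; ULK1, the kinase that starts autophagy, fell from 63.9 ± 3.58 to 38.4 ± 4.55 CPM. Of 23 genes of small extracellular vesicle formation 5 were higher and 4 lower, and 2 and 7 with either other scaling, so no direction can be given for them. RAB35, a small GTPase of vesicle docking, was higher, from 74.9 ± 0.588 to 93.8 ± 2.2 CPM, and FLOT1, a raft protein, lower, from 132 ± 2.92 to 110.1 ± 1.88 CPM.

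Long noncoding RNAs were lower with IL-8 more often than higher. Of 1930 tested, 538 were called lower and 46 higher (27.9% and 2.38%), with a median log2 change of -0.34, while of 12684 protein-coding genes 2447 were lower and 3313 higher (19.3% and 26.1%), with a median of 0.02. With 18 libraries 304 and 24 long noncoding RNAs were lower and higher. The coding median became -0.02 with library size alone and -0.04 with upper-quartile scaling, and that of the noncoding class -0.39 and -0.40. At matched levels the gap between the classes varied. Below a mean log2 CPM of 0, 14.7% of 511 long noncoding and 13.8% of 456 coding genes were lower, with medians of -0.39 and -0.27. From 0 to 1 the shares were 20.3% of 595 and 15.8% of 691 (medians -0.35 and -0.24), and from 1 to 2 they were 31.6% of 361 and 24.0% of 737. From 2 to 3, 103 of 229 and 252 of 928 were lower. From 3 to 4 the shares were 54.0% of 139 and 25.6% of 1385 (medians -0.35 and -0.05), and above 4 52.6% of 95 and 17.6% of 8487. The class held 1.13% to 1.16% of the counts of tested genes untreated and 0.943% to 0.959% with IL-8. AL021392.1 fell from 3.39 ± 0.661 to 1.13 ± 0.142 CPM, CALML3-AS1 from 7.75 ± 0.562 to 2.88 ± 0.431 CPM, AL590560.1 from 5.85 ± 0.334 to 2.3 ± 0.106 CPM and AL590652.1 from 2.72 ± 0.802 to 1.08 ± 0.459 CPM. Against the class, LAMTOR5-AS1 rose from 1.03 ± 0.254 to 2.85 ± 0.486 CPM and LINC02009 from 30.3 ± 2.85 to 55.8 ± 3.79 CPM, as did AP002957.1 and AC090673.1 (3.68-fold and 2.12-fold). The strand setting of the counting was not given, so reads of antisense genes and of their partners cannot be told apart. Of 25 host genes of small nucleolar RNAs 8 were lower and 2 higher; SNHG28 and SNHG20 fell from 1.76 ± 0.0734 to 0.818 ± 0.205 CPM and 8.53 ± 1.13 to 6.16 ± 0.421 CPM.

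Few zinc finger genes were called higher, and their share called lower was near that of all genes. Of 400 genes named ZNF 84 were lower and 28 higher (21.0% and 7.0%, against 20.05% and 21.7% of all genes; median log2 change -0.09), and 31 and 9 with 18 libraries. Their levels were low, with a median mean log2 CPM of 2.59 for the 186 on chromosome 19 and 3.72 for 213 elsewhere, against 5.05 for the other 715 coding genes of chromosome 19. Of the coding genes in the lowest quintile of level (up to 2.75), 20.9% were lower and 6.35% higher, and in the next (up to 4.45) 24.4% and 15.6%. On chromosome 19, 34 of the 186 ZNF genes were lower and 12 higher, near the shares of the lowest quintile. Elsewhere 50 of 213 were lower and 16 higher. Fewer of these were higher than in the quintile that holds their median level, while the share lower was near it. ZNF605 fell from 0.909 ± 0.214 to 0.231 ± 0.0949 CPM and ZNF497 from 2.5 ± 0.503 to 1.32 ± 0.0802 CPM, while ZNF114 rose from 29.3 ± 1.37 to 54.5 ± 3.02 CPM. Of all coding genes 19.3% were lower and 26.1% higher. On chromosome 19, 215 of 901 were lower and 137 higher (23.9% and 15.2%), and without the ZNF genes there 181 of 715 and 125. Chromosome 7 had 164 of 619 lower and 111 higher (26.5% and 17.9%). The opposite lean was found on chromosome 13, with 78 of 211 higher and 18 lower (37.0% and 8.53%), and on chromosome 5, with 209 of 561 and 82 (37.3% and 14.6%). It was also found on chromosome 18, with 64 of 177 and 20 (36.2% and 11.3%), and on chromosome 4, with 147 of 460 and 68 (32.0% and 14.8%). Chromosomes 4, 5, 13 and 18 had the highest shares called higher. Others leaned the same way with smaller shares, such as chromosome 10 (30.4% and 15.8%) and X (27.9% and 11.5%). The medians of chromosomes 4, 5, 7, 13, 18 and 19 kept their sign under both other scalings. They were 0.04 and 0.03 for chromosome 5, 0.07 and 0.05 for 13, and -0.09 and -0.11 for 19.

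In HN6 many of these genes differed the other way between IL-8 and untreated libraries. In an edgeR fit of the 12 libraries of both lines, the change differed between HN4 and HN6 for 7572 of 17192 genes, 3950 higher in HN4 (22.98%) and 3622 lower (21.1%). With library size alone the split was 3018 to 4450, and with upper-quartile scaling 2783 to 4675. Of 3050 genes called in both lines, 2475 had opposite signs, 1503 of them higher in HN4 and lower in HN6 and 972 the reverse, and 575 had the same sign. The HN4 and HN6 groups share no library. The HN4 side carries the limit given with the plasmid libraries, that IL-8 cannot be told apart from whatever the IL-8 and vector-labelled libraries share. The HN6 libraries were not compared with the plasmid libraries of HN6, so whether a like limit holds there was not tested.

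Several lists had opposite medians in the 2 lines. For 39 of 41 mitosis genes the change was more positive in HN4, with medians of 0.60 in HN4 and -0.56 in HN6. The same held for 23 of 24 genes of cholesterol synthesis (0.23 and -0.51), 25 of 30 chaperones (0.40 and -0.24), 30 of 33 genes of ribosome biogenesis (0.35 and -0.28) and 50 of 67 of splicing (0.18 and -0.13). The change was more negative in HN4 for 28 of 32 ATF4 targets (-0.20 and 0.89), 26 of 33 hypoxia genes (-0.36 and 0.33) and 12 of 17 NF-kB genes (-0.35 and -0.07). Of 2442 long noncoding RNAs it was more negative for 596 and more positive for 85 (medians -0.34 and 0.18). The more negative share was near the 21.1% of all genes, and the more positive share was below their 22.98%. The epidermal differentiation list split, with 4 of 20 more positive and 5 more negative, near the shares of all genes.

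Single genes show the size of the difference. CHAC1 went from 1.19 ± 0.176 to 8.32 ± 0.416 CPM in HN6 and fell in HN4, a difference of -4.55 in log2 change (SE 0.198, edgeR adjusted p = 7.92e-22). For NDRG1 the HN6 level moved from 21.1 ± 2.09 to 101 ± 1.9 CPM, a difference of -3.73 (SE 0.0718, edgeR adjusted p = 1.9e-34). ASNS, ADM2 and CASP14 also rose in HN6 and differed by -3.95, -4.51 and -3.03. ACLY fell in HN6 from 274 ± 4.29 to 222 ± 3.09 CPM against its rise in HN4, a difference of 2.15 (SE 0.0514, edgeR adjusted p = 4.72e-31). IFI27, PIF1 and FST, the activin antagonist follistatin, fell in HN6 and rose in HN4, with differences of 2.77, 2.26 and 2.28. CXCL8 fell in both lines, from 182 ± 15.4 to 71.6 ± 1.18 CPM in HN6, with a log2 change of -1.35 there and -1.14 in HN4 (difference 0.21, edgeR adjusted p = 0.0108). MMP3 and VCAN stood below 0.1 CPM on average in both HN6 groups, and no fold is given for them there.

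**Figure D5:**
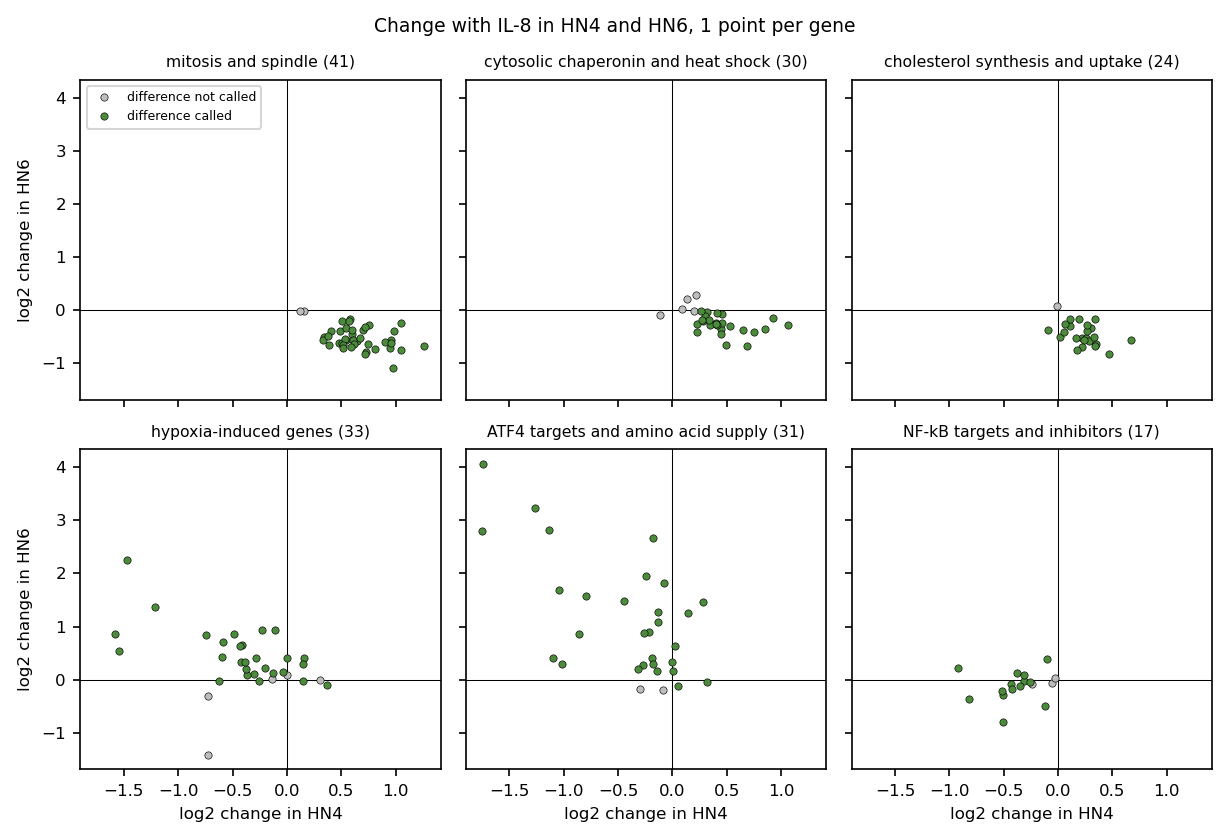
Log2 change with IL-8 in HN4 (horizontal) and HN6 (vertical) for members of 6 gene lists, 1 point per gene, green where the difference between the lines passed an adjusted p of 0.05. Mitosis, chaperone and cholesterol genes lie mostly to the lower right, hypoxia and ATF4 genes mostly to the upper left, and NF-kB genes to the left.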

How the data were processed

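RNA sequencing read counts per gene were deposited as 1 table for the 36 libraries. Per the submitters' processing notes, the authors worked on hg38 with HISAT2 2.0.5 and featureCounts 1.5.0-p3, and DESeq2 and CASAVA are also named. Annotation release, strand setting and treatment of reads with several positions: not given in the sources used here. All 58735 genes of the table lie at GENCODE 29 positions, and 0 sample columns were left unused.

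The 6 HN4 libraries were fitted alone with edgeR 4.0.16 in R 4.3.3: filterByExpr (minimum count 10, minimum total 15), TMM factors, glmQLFit and glmQLFTest, Benjamini-Hochberg adjustment at 0.05 over the 15674 genes kept, and glmTreat at 1.5-fold. The fit had 4 residual degrees of freedom and a common biological coefficient of variation of 0.0394. CPM values were computed here with TMM factors, except for the tissue and line markers, which used library totals alone. A fold is the fitted one. HN4 and HN6 were compared by an interaction term in a fit of 12 libraries, and the HN4 groups of the plasmid experiment in a fit of the 12 HN4 libraries. Cal27 was left out of the comparison of lines because its treated libraries hold genes otherwise read only in HN4. The scripts were tested on simulated counts. Replicates are the label numbers 1 to 3; an exact permutation test of 3 against 3 cannot go below 0.1.

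Alternatives were DESeq2 1.42.0, library size, upper-quartile and DESeq2-type factors, no filter, a mean of at least 5 CPM, protein-coding genes alone, 12 or 18 libraries in 1 fit, a replicate block, other fold limits, and each replicate left out.

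The comparison and the gene lists were chosen with earlier results of these data known. Named genes were ACLY, CXCL8 and the 2 receptors; the 14 largest rises and falls in log2 among called coding genes of at least 2 mean log2 CPM without overlap; the 6 largest gains and losses in CPM; the 4 largest rises and falls of long noncoding RNAs of at least 1 mean log2 CPM; up to 4 called members of each list by size of change; all members of lists of 8 or fewer; and the 6 largest differences from HN6 in each direction. Some genes that met this rule are not reported here. Sequences are from RefSeq, GRCh38.p14.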

Additional observations from a re-analysis of the deposited data

Results flagged for a closer look

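The difference between IL-8 and untreated libraries was not the same in HN4 and HN6 for 7572 genes by the interaction term of the edgeR fit. In HN4 that difference cannot be told apart from whatever the IL-8 and vector-labelled libraries share, and a like limit in HN6 was not tested. Terms are given as the HN4 minus the HN6 log2 change. Among coding genes called in HN4 and for the term, with a mean of at least 2 log2 CPM over the 12 libraries, the largest positive terms were IFI27 at 2.77, DUSP23 at 2.72, RELN at 2.58, FST at 2.28, PIF1 at 2.26 and ACLY at 2.15. The largest negative terms were CHAC1 at -4.55, ADM2 at -4.51, ASNS at -3.95, NDRG1 at -3.73, CASP14 at -3.03 and EVL at -2.97.

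Some of these terms rest on few HN6 reads. DUSP23 had 7 reads in all in untreated HN6 and 1 with IL-8, RELN had 12 and 4, and EVL had 1 and 9, so their fitted terms depend on the prior count and are no bound. ADM2 and ASNS had 16 and 36 reads in untreated HN6 and 159 and 263 with IL-8. ACLY had 14614 and 12190 reads, NDRG1 1125 and 5554, and FST 3310 and 1177.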

How the results depend on the processing

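With 18 libraries in 1 fit, 2567 genes passed (1267 higher, 1300 lower), 62 beyond 1.5-fold (34 and 28), and the change differed between HN4 and HN6 for 3999 (2007 and 1992). That fit includes the Cal27 libraries, whose treated members hold genes otherwise read only in HN4. The cause of the lower counts was not tested. Of the 2567, 2484 were also called with the 6 libraries. A limit of 1.2-fold passed 1712 genes (689 and 1023) and one of 2-fold 26 (17 and 9), by construction. With a mean of at least 5 CPM, 55 genes were higher beyond 1.5-fold. Leaving out 1 library each gave 5377 to 6192 calls, 140 to 194 beyond 1.5-fold (70 to 110 lower, the fewest without IL-8 replicate 2) and 6917 to 7522 differences from HN6. IL-8 against the libraries labelled vector gave 56 genes with DESeq2, 312 with those 6 libraries alone and 15 to 22 with 1 library left out. Untreated against the libraries labelled ACLY gave 95 with those 6 libraries alone and 248 to 1146 with 1 left out: 1146 without ACLY-labelled replicate 3, and 299, 283 and 248 without untreated replicates 1, 2 and 3.

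DESeq2 called 5244 genes, 5240 of them also called by edgeR. With the replicate number as a block 6087 genes were called, 191 beyond 1.5-fold. Same-numbered libraries did not deviate together (r of -0.02, 0.00 and -0.03 across genes), so no pairing by number was seen. The check cannot exclude pairing, because the deviations include sampling noise. No named gene that was called changed sign under these alternatives. The split of all calls turned from 3408 higher and 3142 lower to 2677 and 3827 with library size alone and to 2469 and 4082 with upper-quartile scaling. Of 53 lists, the split turned in 4 under both of these scalings: solute carriers (54 and 38 to 42 and 46, and to 41 and 51), vesicle formation (5 and 4 to 2 and 7 in both), fatty acid oxidation (3 and 1 to 1 and 4 in both) and cadherins and desmosomes (7 and 6 to 5 and 6, and to 5 and 7). The medians of 7 lists and of all coding genes changed sign under 1 or both, each from within 0.05 of 0. With 18 libraries the split also turned for receptors of growth factors and cytokines (7 and 12 to 2 and 1), collagens (5 and 6 to 4 and 2), cytosolic ribosomal proteins (12 and 20 to 2 and 0) and solute carriers (to 13 and 16). Among values for named genes and lists, 3958 kept their side of the threshold or stayed within 1.5 times, 196 lost the call, 133 moved and 1 gained a call. At this depth CXCR1 and CXCR2 allow no comparison.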

Other observations

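Some weakly read genes had larger fitted changes than those named, and were chosen after their values were seen. With few reads in a group, such fitted changes can depend on the prior count and are no bound. SERPINB3 and SERPINB4, squamous cell carcinoma antigens that are near-identical neighbours and so uncertain, were at fitted log2 changes of 3.93 and 3.52. BMP5, a growth factor of the TGF-beta family, was at 4.52. INHBE, an activin chain, and NPW, a neuropeptide, were at -2.38 and -2.41. RN7SL2, a small RNA of the signal recognition particle, varied widely among the IL-8 libraries and did not pass (edgeR adjusted p = 0.0917).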
